A study of Rattus norvegicus with 9 samples.

Results

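The 10 core circadian clock genes on the list were found among the 17862 features measured in kidney tissue, 10 of 10 by their identifiers. They were Arntl, Clock, Npas2, Per1, Per2, Per3, Cry1, Cry2, Bhlhe40 and Ciart, taken by their identifiers from a list that was drawn up with earlier results of these data known, so their counts are read as a description. RNA depleted of ribosomal RNA was sequenced from 3 kidneys of hypertensive animals given Qingda granule (QDG), a Chinese herbal preparation, 3 kidneys of hypertensive animals without it (Model) and 3 kidneys of normal animals (WT), all 6 weeks old. The labels give the organism as the brown rat, but the identifiers are those of mouse genes, and which species was sequenced cannot be settled from them. The sources used here do not give the strain, how hypertension arose, the dose of the granule, the sex of the animals or whether each sample came from a separate animal, so p-values measure the spread between these samples only, which may be technical. The tissue could not be checked against cell type markers, because no table at hand pairs the other identifiers with gene names.

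The molecular clock is a feedback loop that runs with a period of about a day in most cells, those of the kidney tubules included. BMAL1 (the product of Arntl) pairs with CLOCK or NPAS2, binds E-boxes and drives the Per, Cry, Bhlhe40 and Ciart genes, whose products in turn repress that pair. REV-ERB repressors and ROR activators act on ROR elements and set the rhythm of Arntl and Npas2, so that the transcripts of Arntl and of most E-box genes peak at opposite times of day. In the kidney the clock is known for daily rhythms of sodium handling and blood pressure. The sources used here do not give the hour at which each kidney was taken, so whether it differed between groups could not be tested. A difference in hour cannot be told apart here from a difference between groups.

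Values are FPKM, reads scaled to the length of the feature and to a total for each library, so that levels can be compared between genes. Whole reads recovered from their steps numbered 26.7 M (WT 2) to 29.4 M (Model 1) per library over all listed features, and for the clock genes ran from 16 (Npas2, WT 1) to 3176 (Bhlhe40, WT 3). Differences were tested with limma on log2(FPKM + 1) in 1 fit to all 9 libraries, over the 12187 features that averaged 1 FPKM or more and, separately, over all 17862. Arntl and Npas2, with means of 0.521 and 0.377 FPKM, lie under that limit, so 8 of the 10 genes entered the filtered fit and all 10 the unfiltered fit. A gene is said to have risen or fallen where its Benjamini-Hochberg adjusted p was under 0.05. In whole tissue, fewer cells of a type and less RNA per cell cannot be told apart.

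In Model kidneys the activator genes Arntl and Npas2 were higher than in WT kidneys and the repressor genes Per2, Per3 and Cry1 were lower. The mean level of Arntl was 3.23 times and that of Npas2 4.25 times the WT mean, while the mean of Per2 fell by 64.2%, that of Cry1 fell by 57.1% and that of Per3 fell by 48.1%. In the fit to all features 5 of the 10 genes passed, 2 higher and 3 lower, against 3.94% of all features. Leaving out 1 library gave 0 (without Model 1), 1 (without WT 1, WT 2 or QDG 2), 2 (without Model 2, QDG 1 or QDG 3) or 3 (without WT 3 or Model 3) in that fit. In the fit above the 1 FPKM limit 3 of 8 passed, against 7.9%, and 1 passed without WT 1, WT 2 or Model 1. All 3 Model values lay above or below all 3 WT values for 7 of the 10 genes, against 24.7% of all features. Clock and Per1 had overlapping values, as did Ciart.

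In QDG kidneys none of the 10 genes passed against Model, in a comparison in which limma called 0 of all 12187 tested features (0%), as did voom on recovered reads. At an unadjusted p under 0.05 stood 6 of the 10 genes in the fit to all features, against 12.2% of all, and 4 of 8 in the fit above 1 FPKM, against 13.9% (1695 features). Of these 6, Arntl and Npas2 were lower in QDG than in Model, and Per2, Per3, Cry2 and Ciart were higher. All 3 QDG values lay apart from all 3 Model values for 5 genes, against 23.2% of all features. They were the same genes without Ciart. Against WT, 1 of 8 genes passed (Cry1, lower in QDG), against 2.47% of features, and 6 of the 10 had groups that did not overlap, against 24.9%. Npas2 is in both counts of groups that did not overlap, by small margins given below. The comparisons share libraries in pairs, so they are no independent evidence of each other.

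**Figure D1:**
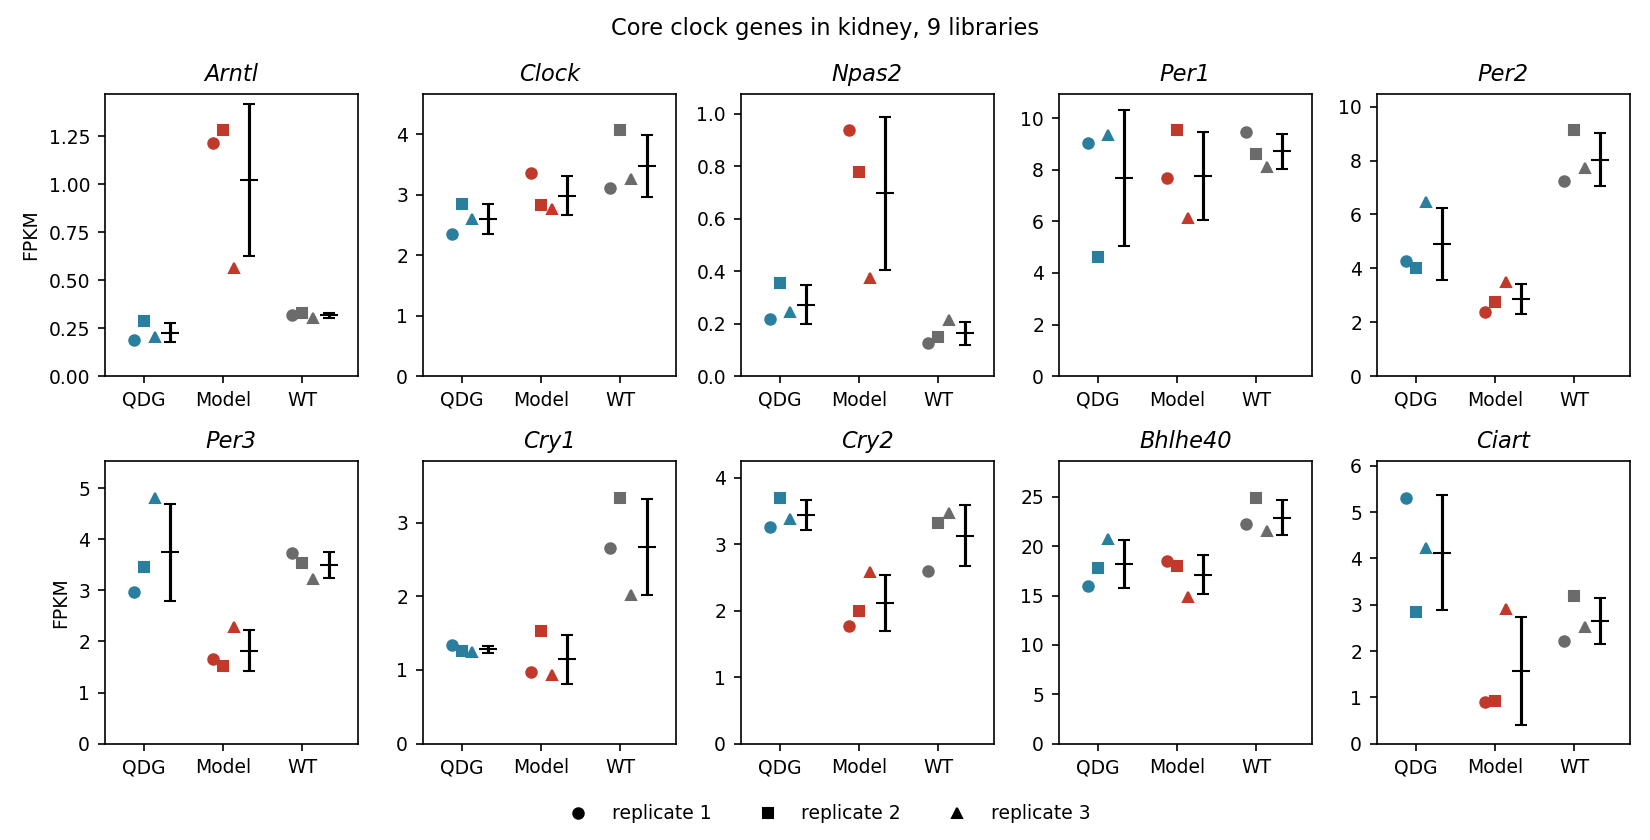
FPKM of the 10 core clock genes (vertical axes, each from 0) in the QDG, Model and WT kidneys, with a point per library and, beside the points, the group mean with its SD (n = 3). Arntl and Npas2 are highest in the 3 Model libraries, and Per2 and Per3 are lowest there. Cry1 is low in both QDG and Model.

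Arntl (ENSMUSG00000055116) encodes BMAL1, the partner without which the activator complex does not form. Its level was 0.190, 0.286 and 0.207 FPKM in QDG, 1.22, 1.28 and 0.565 FPKM in Model and 0.320, 0.328 and 0.301 FPKM in WT. Every Model value lay above every value of the other groups, and every QDG value lay below every WT value, although QDG 2 and WT 3 were close. Model 3 stood at less than either of the other Model libraries. Arntl rose in Model over WT by a log2 of 0.60 on the log2(FPKM + 1) scale, which understates changes at such low levels (SE 0.13; limma over all features, adjusted p = 0.0355). The call was lost when any 1 of the 9 libraries other than Model 3 was left out, with adjusted p between 0.0548 and 0.101. It held with a pseudocount of 0.1 (log2 change 1.36, limma adjusted p = 0.0322) and with voom on recovered reads (log2 change 1.61, limma adjusted p = 0.0190). QDG differed from Model by a log2 of −0.70 (SE 0.13), which did not pass (limma adjusted p = 0.264). Without Model 3 this difference was −0.87 and passed (limma adjusted p = 0.00677). Between QDG and WT the log2 difference was −0.10, with a 95% interval of −0.38 to 0.18.

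Npas2 (ENSMUSG00000026077) encodes a paralogue of CLOCK that can take its place beside BMAL1. It had 0.218, 0.357 and 0.243 FPKM in QDG, 0.936, 0.779 and 0.373 FPKM in Model and 0.127, 0.151 and 0.213 FPKM in WT. The 3 groups did not overlap, with WT lowest, QDG between and Model highest, and Model 3 was again the lowest Model library. The margins were small. Model 3 had 48 reads (0.373 FPKM) against 50 in QDG 2 (0.357 FPKM). QDG 1 had 30 reads (0.218 FPKM) against 32 in WT 3 (0.213 FPKM). In both pairs the library with fewer reads had the higher FPKM, so the order there rests on the scaling totals. The levels of Npas2 rest on 16 to 129 reads per library. Npas2 rose in Model against WT by a log2 of 0.53 (SE 0.11; limma over all features, adjusted p = 0.0367), a call that held without WT 3 or Model 3 and was lost without any 1 of the other 7 libraries (highest adjusted p 0.0979). The log2 difference of QDG was −0.40 against Model (limma adjusted p = 0.328) and 0.13 against WT (limma adjusted p = 0.583).

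Clock (ENSMUSG00000029238), the usual partner of BMAL1, whose transcript varies little over the day in many tissues, ran from 2.35 to 4.06 FPKM. It had 2.35, 2.84 and 2.60 FPKM in QDG, 3.35, 2.83 and 2.76 FPKM in Model and 3.11, 4.06 and 3.26 FPKM in WT. Model overlapped both other groups, while all QDG values lay below all WT values. No difference passed. The log2 difference was −0.17 for Model against WT, with a 95% interval of −0.42 to 0.09 (limma adjusted p = 0.364). For QDG against WT it was −0.31, with a 95% interval of −0.56 to −0.06 before adjustment (limma adjusted p = 0.157). QDG against Model gave −0.15 (limma adjusted p = 0.575). After removal of each library's trend with feature length, Model against WT gave −0.008 (limma adjusted p = 0.965). QDG against Model then gave −0.28 (limma adjusted p = 0.353).

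Npas2 made up more of the summed Clock and Npas2 FPKM in Model. Its share was 8.49%, 11.2% and 8.56% in QDG, 21.8%, 21.6% and 11.9% in Model and 3.94%, 3.58% and 6.12% in WT. The groups did not overlap in this share, and Clock remained the more abundant of the pair in every library.

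The start regions of Arntl, Per2 and Ciart are shown as those of opposing arms of the loop with matches to its motifs. They were picked for these matches, which are no test of the loop. They were read from the RefSeq table of the rat assembly GRCr8, which holds 300 bases per start, 250 before and 50 after, and had an entry for 9 of the 10 genes. The motifs searched on both strands were the E-box CACGTG, the E-prime box CACGTT, the D-box TTATGTAA and the ROR element TAGGTCA. No letters overlapped between the matches found. Matches are in capitals.
Arntl (Bmal1), chr1:176766078-176766377, plus strand: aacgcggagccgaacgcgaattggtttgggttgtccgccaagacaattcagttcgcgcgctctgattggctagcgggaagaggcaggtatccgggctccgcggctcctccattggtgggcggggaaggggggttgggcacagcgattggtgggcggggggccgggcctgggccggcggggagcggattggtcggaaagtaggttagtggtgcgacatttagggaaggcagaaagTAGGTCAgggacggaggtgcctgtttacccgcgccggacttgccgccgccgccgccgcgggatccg
Per2, chr9:99496944-99497243, minus strand: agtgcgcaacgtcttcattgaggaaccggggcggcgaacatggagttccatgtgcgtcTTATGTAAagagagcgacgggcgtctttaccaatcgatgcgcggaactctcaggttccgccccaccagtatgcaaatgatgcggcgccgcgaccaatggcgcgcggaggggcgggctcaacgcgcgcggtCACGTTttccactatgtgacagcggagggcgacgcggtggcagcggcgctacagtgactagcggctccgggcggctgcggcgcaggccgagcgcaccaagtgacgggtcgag
Ciart, chr2:186112197-186112496, minus strand: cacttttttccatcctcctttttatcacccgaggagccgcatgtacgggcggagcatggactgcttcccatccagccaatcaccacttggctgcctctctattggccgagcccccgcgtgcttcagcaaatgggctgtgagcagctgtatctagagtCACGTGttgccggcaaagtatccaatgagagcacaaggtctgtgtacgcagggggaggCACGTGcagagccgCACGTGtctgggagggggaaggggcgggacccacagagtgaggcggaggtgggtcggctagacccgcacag
Arntl holds a ROR element with its first base at −16 from the start, a motif in 2.63% of the 33469 start regions of the table. Per2 holds a D-box at −192 (0.893% of regions) and an E-prime box at −62 (4.83%). Ciart holds 3 E-boxes, at −93, −35 and −21. An E-box occurs in 6.42% of the regions, and 19 of them (0.0568%) hold 3 or more. Of the other clock genes with an entry, Bhlhe40 holds an E-box and Cry2 an E-prime box, and Clock, Npas2, Per1 and Per3 hold none of these letters in this window. Npas2 and Per3 passed in Model against WT, and Ciart did not. A match describes the letters and shows no binding.

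Per2 (ENSMUSG00000055866), a repressor whose protein binds the CRY proteins, had the largest log2 change of the 8 clock genes above 1 FPKM in Model against WT. It had 4.26, 4.03 and 6.46 FPKM in QDG, 2.37, 2.77 and 3.48 FPKM in Model and 7.23, 9.12 and 7.73 FPKM in WT. The 3 groups did not overlap, with Model lowest, QDG between and WT highest. These values rest on 400 to 1422 reads per library. Per2 fell in Model by a log2 of −1.23 against WT (SE 0.17; limma adjusted p = 0.00732), rank 34 by p among the 12187 features tested. This call held under 20 alternatives, with log2 changes between −1.53 and −1.13. In the fits to all features with 1 library left out, it was lost without Model 1 (log2 change −1.13, limma adjusted p = 0.0519) and held without any 1 of the other libraries. The QDG mean was 1.71 times the Model mean and 0.612 times the WT mean. The log2 difference of QDG was 0.60 from Model (limma adjusted p = 0.289) and −0.63 from WT (limma adjusted p = 0.0714), each with an SE of 0.17. Against WT it passed with voom on recovered reads (limma adjusted p = 0.0492) and under none of the other 19 alternatives.

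Per3 (ENSMUSG00000028957), the paralogue that is dispensable for the rhythm itself in mice, had 2.97, 3.45 and 4.81 FPKM in QDG, 1.65, 1.52 and 2.28 FPKM in Model and 3.73, 3.55 and 3.23 FPKM in WT. All Model values lay below all values of the other groups, and QDG and WT overlapped. It fell in Model by a log2 of −0.68 (SE 0.15; limma adjusted p = 0.0290). The call was lost without WT 1, WT 2, Model 1, Model 2 or QDG 2 (adjusted p 0.0517 to 0.0844), with only the WT and Model libraries fitted (limma adjusted p = 0.0526) and after removal of each library's trend with feature length (log2 change −0.58, limma adjusted p = 0.0616). In the fits to all features with 1 library left out, it held without QDG 3 alone. The difference of QDG from Model was 0.74 (SE 0.15), rank 24 by p among the 12187 features tested in a comparison without calls (limma adjusted p = 0.265). From WT it was 0.06, with a 95% interval of −0.28 to 0.40.

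Per1 (ENSMUSG00000020893), the Per gene that also answers to glucocorticoids and aldosterone and is known to act on the epithelial sodium channel gene in the collecting duct, did not separate the groups. It had 9.05, 4.62 and 9.37 FPKM in QDG, 7.69, 9.53 and 6.12 FPKM in Model and 9.45, 8.61 and 8.09 FPKM in WT. QDG 2 stood lowest of all 9 libraries. In Model against WT the log2 difference was −0.16, with a 95% interval of −0.66 to 0.34 (limma adjusted p = 0.669), and in QDG against Model −0.05, with an interval of −0.55 to 0.45 (limma adjusted p = 0.934). That interval for Model against WT includes the difference found for Cry2.

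Per1 made up more of the summed Per FPKM in Model than in WT. Its share was 55.6%, 38.2% and 45.4% in QDG, 65.6%, 69.0% and 51.5% in Model and 46.3%, 40.5% and 42.5% in WT. Model lay above WT in every library and overlapped QDG. The summed level of the 3 Per genes was 16.3, 12.1 and 20.6 FPKM in QDG, 11.7, 13.8 and 11.9 FPKM in Model and 20.4, 21.3 and 19.1 FPKM in WT.

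Cry1 (ENSMUSG00000020038) and Cry2 (ENSMUSG00000068742) encode the cryptochromes, which carry most of the repression of the activator pair. Cry1 had 1.33, 1.26 and 1.25 FPKM in QDG, 0.978, 1.53 and 0.926 FPKM in Model and 2.65, 3.33 and 2.02 FPKM in WT. QDG and Model overlapped, and both lay below every WT value. Cry1 fell in Model by a log2 of −0.77 (SE 0.15; limma adjusted p = 0.0204) and in QDG by −0.67 against WT (SE 0.15; limma adjusted p = 0.0470). QDG against Model gave a log2 difference of 0.10, with a 95% interval of −0.23 to 0.43. The call in Model was lost without WT 1, WT 2, Model 1 or Model 3 (adjusted p 0.0518 to 0.0720) and with only the WT and Model libraries fitted (limma adjusted p = 0.0652). In the fits to all features with 1 library left out, it held without WT 3, Model 2 or QDG 1. The call in QDG held under 9 of 19 alternatives and was lost in the fit to all features (limma adjusted p = 0.0660), with a pseudocount of 0.1 in either fit (limma adjusted p = 0.0536 and 0.0697), with the replicate number as a block (limma adjusted p = 0.0528) and without WT 1, WT 2, Model 1 or any 1 of the QDG libraries (highest adjusted p 0.165).

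Cry2 had 3.25, 3.70 and 3.38 FPKM in QDG, 1.77, 1.99 and 2.58 FPKM in Model and 2.60, 3.32 and 3.47 FPKM in WT. Model lay below both other groups, by a small margin to WT 1, and QDG and WT overlapped. Cry2 differed by a log2 of −0.41 between Model and WT (limma adjusted p = 0.0692) and by 0.52 in QDG against Model (limma adjusted p = 0.279), and neither passed. Against WT it was 0.11 in QDG, with a 95% interval of −0.17 to 0.39. In Model against WT, Cry2 passed under 1 of 19 alternatives, voom on recovered reads (limma adjusted p = 0.0423), and voom over all features lost it (limma adjusted p = 0.0601). Cry1 made up 29.1%, 25.4% and 27.0% of the summed Cry FPKM in QDG, 35.6%, 43.4% and 26.4% in Model and 50.5%, 50.1% and 36.8% in WT. All QDG shares lay below all WT shares.

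Bhlhe40 (ENSMUSG00000030103) encodes DEC1, a repressor that competes for E-boxes and also responds to hypoxia and growth signals, and it was the most abundant clock gene in every library. It had 16.0, 17.8 and 20.8 FPKM in QDG, 18.5, 18.0 and 14.9 FPKM in Model and 22.3, 24.9 and 21.5 FPKM in WT. Every WT value lay above every value of the other groups, and QDG and Model overlapped. Bhlhe40 differed by a log2 of −0.40 between Model and WT (limma adjusted p = 0.0756) and by −0.32 in QDG against WT (limma adjusted p = 0.184), and neither passed, in the fit used here or under any of 20 alternatives.

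Ciart (ENSMUSG00000038550) encodes CHRONO, a repressor of the BMAL1 complex. It had 5.31, 2.84 and 4.23 FPKM in QDG, 0.892, 0.914 and 2.92 FPKM in Model and 2.23, 3.19 and 2.52 FPKM in WT. Model 1 and Model 2 lay below all other libraries, while Model 3 lay within the WT range. The high Model value was 3.27 times the low one, the widest spread of any clock gene within a group. Ciart did not pass in Model against WT (a difference of −0.58 on the log2 scale, 95% interval −1.20 to 0.03; limma adjusted p = 0.197). The difference of QDG from Model was 1.05 with a 95% interval of 0.44 to 1.67 before adjustment, and it did not pass either (limma adjusted p = 0.289). Against WT it was 0.47 (limma adjusted p = 0.355).

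**Figure D2:**
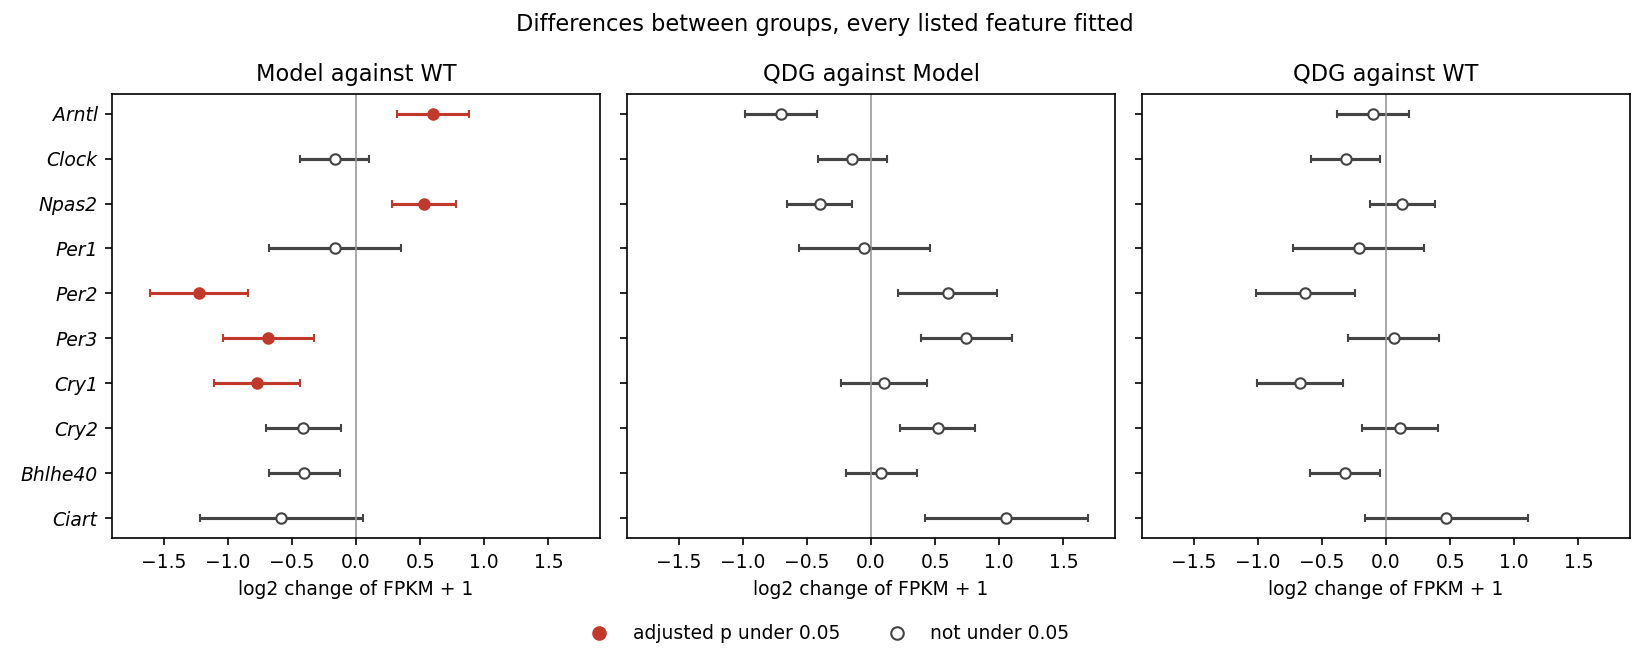
Log2 change of FPKM + 1 with its 95% interval (horizontal axes) for each clock gene in Model against WT, QDG against Model and QDG against WT, from the limma fit to all features. Filled points passed at an adjusted p under 0.05. They are Arntl, Npas2, Per2, Per3 and Cry1 in Model against WT, with no filled point in the other comparisons.

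Within each library the ratio of a repressor gene to Arntl gave the relation of the opposing arms, and the scaling of the library cancels in it. Ratios were taken for Per2, Per3, Cry2 and Ciart, the clock genes with the lowest correlation with Arntl. None was taken for Per1, Cry1 or Bhlhe40. Per2 stood at 22.5, 14.1 and 31.3 times the FPKM of Arntl in QDG, 1.95, 2.16 and 6.16 times in Model and 22.6, 27.8 and 25.7 times in WT. QDG and WT overlapped, and the highest Model ratio was less than the lowest of either. Ciart stood at 28.0, 9.93 and 20.5 times the FPKM of Arntl in QDG, 0.734, 0.714 and 5.17 times in Model and 6.97, 9.73 and 8.39 times in WT. These groups did not overlap, and in Model 1 and Model 2 alone Ciart was below Arntl. For Per3 the ratio was 15.7, 12.1 and 23.3 in QDG, 1.36, 1.19 and 4.03 in Model and 11.7, 10.8 and 10.7 in WT. For Cry2 it was 17.2, 12.9 and 16.4 in QDG, 1.46, 1.56 and 4.56 in Model and 8.14, 10.1 and 11.6 in WT. The ratios share the value of Arntl, so they are not separate measurements of it, and no test was made on them. Arntl was highest in Model, so a gene with equal levels in all groups would also have its lowest ratio there.

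**Figure D3:**
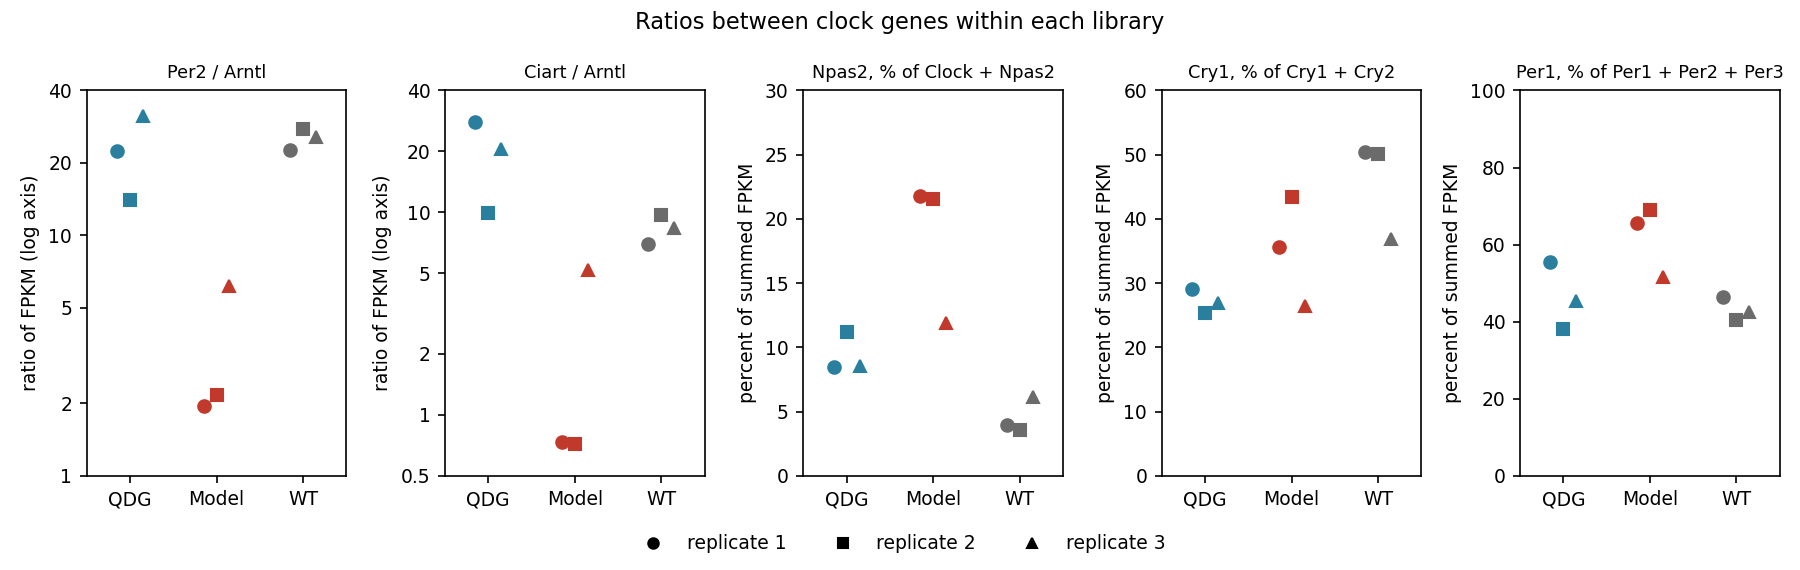
Ratios between clock genes within each library, with a point per library of QDG, Model and WT. The left panels show the FPKM of Per2 and of Ciart over that of Arntl on log axes, and the others show the share of Npas2, Cry1 and Per1 in the summed FPKM of their families in percent. The Per2 to Arntl ratio is 6.16 or less in Model and at least 14.1 in QDG and WT, and the Npas2 share is highest in Model.

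Model 3 stood at the end of the Model range in all 10 genes. It had the lowest Arntl and Npas2 and the highest Per2, Per3, Cry2 and Ciart of the Model libraries, and its Per2 to Arntl ratio of 6.16 was the nearest to the other groups. It also had the lowest Cry1 (0.926 FPKM), Bhlhe40 (14.9 FPKM), Per1 (6.12 FPKM) and Clock (2.76 FPKM) of the Model libraries, which is farther from the WT mean. For Arntl, Npas2, Per2, Per3 and Cry2, it stayed on the Model side of every WT library. Model 3 was also the library with the lowest scaling total relative to its reads (0.938, against 0.959 to 1.11 in the others). Its part in these results was not tested beyond leaving it out.

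The order of the levels differed between groups. Bhlhe40 and Per1 had the highest means in all of them. In QDG the mean levels then ran through Per2, Ciart, Per3 and Cry2 (4.91, 4.13, 3.74 and 3.44 FPKM), neighbours whose values overlapped, to Clock, Cry1, Npas2 and Arntl. In Model, all neighbours from Clock (2.98 FPKM) through Per2, Cry2, Per3, Ciart, Cry1 and Arntl to Npas2 (0.696 FPKM) overlapped. In WT, Per2 (8.03 FPKM) overlapped with Per1 (8.72 FPKM), the values of Per3, Clock, Cry2, Cry1 and Ciart overlapped from each to the next (3.50 to 2.65 FPKM), and Arntl and Npas2 lay apart at 0.316 and 0.164 FPKM.

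Likeness to Arntl was described by the Pearson correlation of log2(FPKM + 1) over the 9 libraries. Npas2 came closest among the clock genes, with r = 0.93, and 2 of the 12187 tested features had a higher value. Cry2, Per3 and Ciart ran opposite to Arntl, with r of −0.92, −0.91 and −0.91, and 5, 6 and 8 tested features had a lower value. Per2 had r = −0.74, Cry1 −0.32, Bhlhe40 −0.25, Per1 0.07 and Clock 0.17. Of the tested features, 0.0821% had r of −0.9 or less, and 0.0328% had 0.9 or more. These values rest on the Model libraries. Without Model 1 and Model 2, the libraries farthest from the median of Arntl, r over the other 7 was 0.41 for Npas2, −0.69 for Per3, −0.64 for Cry2, −0.55 for Ciart and −0.27 for Per2. With each group's mean removed, r over the 9 libraries was 0.92 for Npas2, −0.89 for Ciart, −0.61 for Cry2, −0.55 for Per3 and −0.50 for Per2, and without Model 3 it was 0.39 for Npas2, −0.73 for Ciart, 0.37 for Cry2, −0.04 for Per3 and −0.23 for Per2. Leaving out that library turned the sign for Cry2. The points share libraries and groups, and no p-value was attached.

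Beyond the clock genes on the list, the tested features most like Arntl were ENSMUSG00000074102 (r = 0.95) and ENSMUSG00000028597 (r = 0.94). Those most opposite were ENSMUSG00000073423 and ENSMUSG00000059824 (r = −0.93 each). The sources used here pair none of them with a name, so whether any is itself a clock gene cannot be told from them. ENSMUSG00000059824 had 49.7, 43.6 and 43.2 FPKM in QDG, 11.9, 12.1 and 30.3 FPKM in Model and 29.6, 22.9 and 32.5 FPKM in WT. All its QDG values lay above all values of the other groups, and Model 3 stood within the WT range, as it did for Ciart. The others varied less, from 1.95 to 2.99 FPKM in ENSMUSG00000073423 and from 3.35 to 4.57 FPKM in ENSMUSG00000074102.

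**Figure D4:**
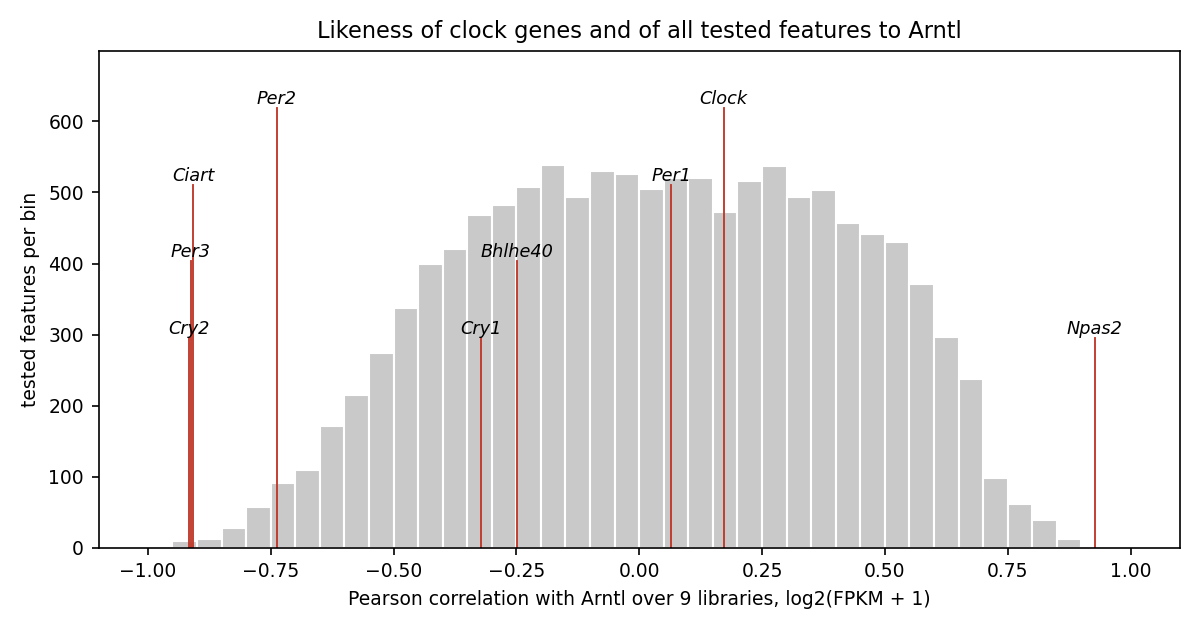
Pearson correlation with Arntl over the 9 libraries (horizontal axis) for all 12187 tested features, as the number of features per bin (grey bars), with the clock genes as lines. Npas2 lies at the right edge (0.93), Cry2, Per3 and Ciart at the left edge (−0.92 to −0.91), and Clock, Per1, Bhlhe40 and Cry1 in the body. The height of a line has no meaning.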

How the data were processed

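Per the labels' protocols, an NEB Next Ultra kit was used after depletion of ribosomal RNA from kidney total RNA. Strand marking is not stated, so antisense reads cannot be told apart. Each deposited file gives a value for every feature of a sample. Its unit is not stated and was taken as FPKM, because whole reads came out for all 17862 features (tolerance 0.005 read or 2e-07 of the reads). The scaling totals implied are 0.938 to 1.11 times the listed reads, so the deposited FPKM were not scaled to those reads alone. In WT 1, WT 2, Model 1 and Model 3 the total was less than the listed reads. The ratio was lowest in Model 3 (26.8 M against 28.6 M). The totals therefore need not be the sizes of the libraries. No value was 0. The submitters' processing notes name limma, and the sources used here do not give the aligner, counter, build or annotation.

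Identifiers were named from the list of clock genes only. The rat gene table (47357 genes, GRCr8) pairs 0 of the listed features, so lists of other clock genes, kidney targets of the clock and cell type markers were not analysed here. The rule for named genes took all clock genes, and the features with the highest and lowest correlation with Arntl, given by at most 2 identifiers in each direction because no table names them.

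R 4.3.3 with limma 3.58.1 fitted log2(FPKM + 1) with an intensity trend, two-sided, to all 9 libraries, without a replicate block. A mean of at least 1 FPKM was required, and Arntl and Npas2, below it, were read from the alternative without a filter. Same-group libraries differed beyond counting noise (chi-square per degree of freedom 11.9 to 67.9). The script was tested on simulated data. The members and lists were chosen with earlier results of these data known. Alternatives were a pseudocount of 0.1, other filters (none, 5 FPKM), quantile and median ratio scaling, removal of the length trend (loess, span 0.5), voom on recovered reads, 2-group fits, a replicate block and leaving out each library.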

Additional observations from a re-analysis of the deposited data

How the results depend on the processing

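Fits without a filter and with a pseudocount of 0.1, voom without a filter, and leaving out libraries without a filter were added once the values were known. In Model against WT, 3 of the 8 tested clock genes passed. The number was 5 of 10 without a filter, also with a pseudocount of 0.1 or voom, where Arntl and Npas2 were tested too. It was 1 with a limit of 5 FPKM, which leaves Per1, Per2 and Bhlhe40, 1 with only the 2 groups fitted, 2 with the length trend removed and 4 with voom on recovered reads. Leaving out 1 library gave 1 (without WT 1, WT 2 or Model 1) to 3, and without a filter 0 (without Model 1) to 3. In QDG against Model the number was 0 under every alternative run but 1, the fit without a filter and without Model 3, in which Arntl passed. In QDG against WT, 1 gene passed (Cry1), 2 with voom on recovered reads, 0 with a pseudocount of 0.1, without a filter, with both, or with a limit of 5 FPKM, and 0 to 1 with 1 library left out. The cause of these changes was not tested beyond what the alternatives' own construction shows.

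The replicate number as a block gave 3 genes in Model against WT, 0 in QDG against Model and 0 in QDG against WT. Same-numbered libraries deviated from their group means with correlations of −0.33 to 0.14, and libraries of other numbers with −0.24 to 0.43. The labels do not say what a shared number marks, and with 3 libraries per group these correlations cannot decide it.

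Direction changed 6 times when 1 library was left out, in single-gene results that had not passed, which were Per1 in QDG against Model (−0.21 to 0.24 with 1 library left out) and in QDG against WT (−0.37 to 0.073), Bhlhe40 in QDG against Model (−0.015 to 0.17) and Per3 in QDG against WT (−0.10 to 0.18). Of the other single-gene results under alternatives, 485 kept direction and side of the threshold, 37 no longer passed and 3 passed newly. For the genes above 1 FPKM, these counts leave out the fits to all features with 1 library left out. In those fits Per2, Per3 and Cry1 lost further calls in Model against WT, as given above. Depth is lowest for Arntl (41 to 289 reads) and Npas2 (16 to 129 reads).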
